A study of Mus musculus with 12 samples.

Results

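Genes of the interleukin-6 (IL-6) and interleukin-1 (IL-1) cytokine families were followed in neonatal skeletal muscle fibroblasts treated with aldosterone, spironolactone or vehicle. The genes were taken by their symbols in the deposited tables, and all 10 were found once in each of the 3 tables, among 28995 genes in all. They are 4 cytokines (*Il6*, *Il11*, *Lif* and *Il33*) and 6 receptor chains (*Il6st*, *Il6ra*, *Osmr*, *Lifr*, *Il1rl1* and *Il1r1*). The fibroblasts came from the hindlimb muscles of wild-type C57BL/10 mice, aged 3 days. Every culture spent 24 hours in medium with charcoal-stripped serum, which removes steroids, and was then treated for 48 hours with 1 µM aldosterone, the agonist of the mineralocorticoid receptor (MR), with 1 µM spironolactone, an MR antagonist, or with DMSO as vehicle, with 0.01% DMSO in all groups. Each treatment had 4 libraries. According to the labels, 2 mice gave 2 plates each for every treatment, with the cells of each mouse pooled before plating, and each library carries a sample number and a biological replicate number, 1 or 2. The labels do not say which of these numbers is the mouse, so p-values measure the spread between libraries, part of which lies between plates of 1 animal.

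IL-6, IL-11 and leukemia inhibitory factor (LIF) are secreted cytokines that all signal through the shared chain gp130, the product of *Il6st*. A second chain decides which cytokine a cell can hear, with *Il6ra* for IL-6, *Lifr* for LIF and *Osmr* for oncostatin M, and the bound receptor activates Janus kinases and the transcription factor STAT3. IL-33 is a nuclear cytokine released from damaged stromal cells and binds ST2, the product of *Il1rl1*, while *Il1r1* encodes the receptor for IL-1, and both receptors pair with *Il1rap* and signal through MyD88 and NF-kB. In muscle, these cytokines come largely from stromal and immune cells after injury, and fibroblasts are among their known sources.

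The promoter sequences of the 4 members that passed the adjusted p with aldosterone against vehicle, and of *Il6*, are shown first, since the tables count whole genes and do not separate transcripts that begin at different starts. They are the 250 bases before annotated starts in RefSeq (GRCm38.p6), which held 15 such windows for all 10 members. Gene positions given further on are those of the tables, which use other coordinates than these windows. Printed here are both windows of *Il1rl1*, the windows of *Il6ra*, *Lif* and *Il6*, and the window of *Il11* that held a motif, each 5′ to 3′ in the direction of the gene. Capitals mark matches, on either strand, to 6 motifs, which were GNACANNNTGTNC (steroid receptor palindrome), TGANTCA (AP-1), GGGANTTTCC (NF-kB), TTCNNNGAA (STAT), TTNNGCAA (C/EBP) and TGACGT (part of a cyclic AMP response element).
*Il1rl1*, first start, chr1:40429320-40429569, + strand: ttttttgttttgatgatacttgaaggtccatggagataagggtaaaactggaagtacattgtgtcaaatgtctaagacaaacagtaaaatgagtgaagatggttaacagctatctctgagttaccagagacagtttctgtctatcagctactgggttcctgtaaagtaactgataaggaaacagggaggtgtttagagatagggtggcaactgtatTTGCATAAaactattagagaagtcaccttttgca
*Il1rl1*, second start, chr1:40439379-40439628, + strand: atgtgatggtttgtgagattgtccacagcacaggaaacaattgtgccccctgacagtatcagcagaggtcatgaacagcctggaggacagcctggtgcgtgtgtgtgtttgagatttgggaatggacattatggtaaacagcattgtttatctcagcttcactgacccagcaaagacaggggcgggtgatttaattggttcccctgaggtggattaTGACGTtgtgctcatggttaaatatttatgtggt
*Il6ra*, chr3:89913197-89913446, - strand: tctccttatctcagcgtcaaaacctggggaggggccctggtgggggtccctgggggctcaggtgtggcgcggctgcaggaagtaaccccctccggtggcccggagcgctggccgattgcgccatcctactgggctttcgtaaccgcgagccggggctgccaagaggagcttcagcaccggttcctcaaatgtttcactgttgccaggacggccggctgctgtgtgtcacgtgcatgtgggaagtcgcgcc
*Lif*, chr11:4257318-4257567, + strand: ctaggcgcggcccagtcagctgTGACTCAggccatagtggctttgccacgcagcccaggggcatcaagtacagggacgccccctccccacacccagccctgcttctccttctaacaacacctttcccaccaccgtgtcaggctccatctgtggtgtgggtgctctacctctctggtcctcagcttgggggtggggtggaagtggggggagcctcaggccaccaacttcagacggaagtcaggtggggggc
*Il11*, chr7:4778142-4778391, - strand: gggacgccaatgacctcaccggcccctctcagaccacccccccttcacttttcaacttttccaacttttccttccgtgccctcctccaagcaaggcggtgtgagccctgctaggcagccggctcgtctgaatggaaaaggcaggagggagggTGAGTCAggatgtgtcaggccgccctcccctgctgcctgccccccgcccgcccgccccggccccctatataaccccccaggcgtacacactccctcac
*Il6*, chr5:30012864-30013113, + strand: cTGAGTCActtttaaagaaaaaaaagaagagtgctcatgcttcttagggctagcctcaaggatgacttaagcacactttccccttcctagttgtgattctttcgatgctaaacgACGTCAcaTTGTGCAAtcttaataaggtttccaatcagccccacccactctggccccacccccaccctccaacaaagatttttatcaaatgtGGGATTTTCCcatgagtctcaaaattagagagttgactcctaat

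The *Il6* window held 4 matches, 1 each to the AP-1, C/EBP, NF-kB and cyclic AMP motifs. The *Lif* and *Il11* windows held 1 AP-1 match each, as did 6.75% of the 32851 windows of the table. The first *Il1rl1* window held a C/EBP match, found in 9.56% of all windows, and the second a cyclic AMP motif, found in 6.47%. The NF-kB motif of *Il6* was in 0.356% of windows and the STAT motif, which no member's window matched, in 7.02%. The steroid receptor palindrome was in 0.387% of windows and in none of the 15 windows of the members. The *Il6ra* window matched none of the 6 motifs. These are matches of letters, and no binding was measured. None of the 6 motifs overlapped another in the printed windows.

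The libraries held 19136923 to 30219185 reads on genes. The cells carried fibroblast RNA, with the collagen gene *Col1a1* as the highest of 7 fibroblast markers in each group. The summed level of those markers was 5237 to 5759 RPKM (reads per kilobase of gene, scaled to depth) in vehicle, 4786 to 5381 in spironolactone and 4130 to 4729 in aldosterone libraries, so it was lowest with aldosterone, and its part in the results was not tested. This sum is mostly collagen, and *Pdgfra*, a defining fibroblast marker, went the other way, with 24727 reads over the 4 aldosterone libraries against 12471 in vehicle and 12205 in spironolactone libraries. Of 9 macrophage and monocyte markers, 2 reached 1 RPKM, while *C1qa*, *C1qb* and *Itgam* had no read, and the sum was 6.27 to 8.90 RPKM over all libraries. None of 6 mast cell and 6 lymphoid markers reached 1 RPKM in any group, and *Mcpt4*, *Tpsb2*, *Cd3e* and *Il7r* had no read, which is stated here because mast cells and lymphoid cells are known carriers of ST2. The sums of the pericyte and smooth muscle markers overlapped between treatments (34.8 to 64.9 RPKM over all libraries), as did those of the myogenic markers, which stayed at or below 1.59 RPKM. The endothelial sum, mostly *Tek*, was 5.57 to 5.79 RPKM with aldosterone against 3.87 to 4.46 in the other libraries, and the Schwann cell sum, mostly *S100b*, was 7.78 to 11.4 against 5.99 to 8.62. The endothelial markers did not move together, since *Kdr* had 661 reads over the aldosterone libraries against 185 in vehicle, while *Pecam1* had 12 against 27. The part of these sums in the results was not tested either. In a culture, fewer cells of a type and less RNA per cell cannot be told apart. The treatment was visible in the direct steroid receptor targets, where *Fkbp5* rose 19.2-fold and *Tsc22d3* 6.46-fold over vehicle, and *Per1*, *Sgk1* and *Dusp1* rose 3.56-, 3.93- and 1.90-fold. The glucocorticoid receptor gene *Nr3c1* averaged 2880 normalized counts in vehicle libraries and the MR gene *Nr3c2* 37.5.

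The members spanned a wide range of levels. In vehicle libraries *Il6st* stood at 81.3 ± 8.89 RPKM (SD, n = 4), above 98.2% of the 26515 genes with a read, and held 76.0% of the summed RPKM of the members. *Il1r1* followed at 8.25 ± 0.289 RPKM and *Osmr* at 7.73 ± 0.275 RPKM, and the libraries of these 2 overlapped. *Il1rl1* came next at 4.90 ± 0.558 RPKM, apart from its neighbours in this order. *Il11* (1.56 ± 0.468 RPKM), *Lifr* (1.19 ± 0.127) and *Lif* (1.05 ± 0.0994) overlapped each with the next, and all were above *Il6ra* at 0.515 ± 0.0570 RPKM. *Il6* at 0.255 ± 0.135 RPKM and *Il33* at 0.191 ± 0.0497 RPKM were the lowest and overlapped. *Il6* and *Il33* were thus at the bottom of the order, *Il11* and *Lif* in its lower middle, and the shared chain at the top. With aldosterone the order of the middle members changed, since *Il6ra* (1.61 ± 0.0852 RPKM) came to the fourth place and *Il1rl1* (1.34 ± 0.203 RPKM) to the fifth, with overlapping libraries. With spironolactone *Il1rl1* kept the fourth place at 4.57 ± 0.566 RPKM and *Il6ra* the eighth at 0.529 ± 0.108 RPKM.

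**Figure D1:**
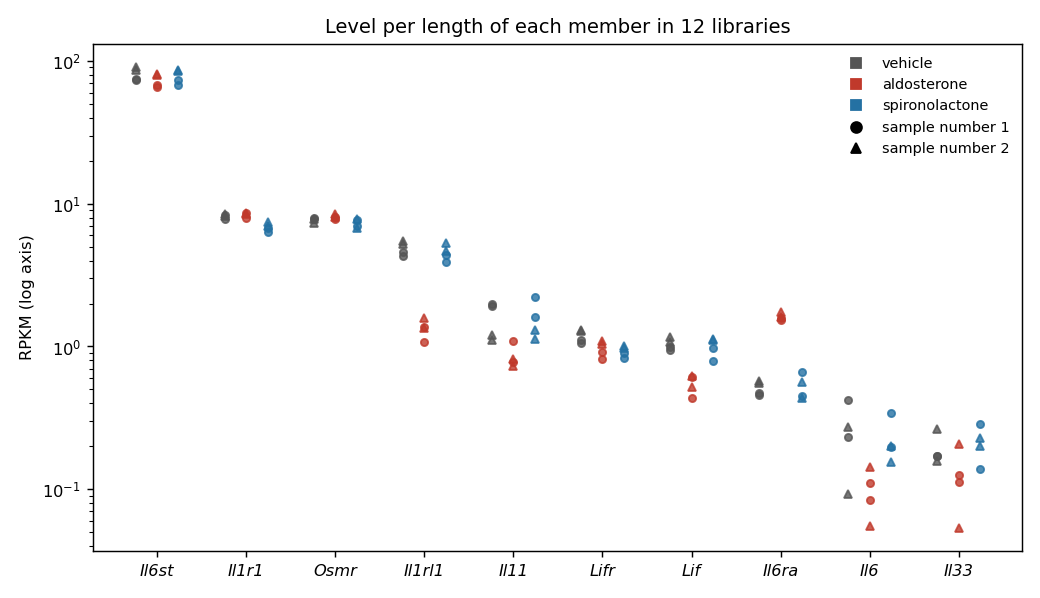
Level of each member per length, in RPKM on a log axis, in each of 12 libraries, with colours for treatments and shapes for sample numbers. *Il6st* lies above all other members in every library, *Il6* and *Il33* lie lowest, and the aldosterone libraries of *Il1rl1* lie below and those of *Il6ra* above the libraries of both other treatments.

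The first comparison asked what aldosterone changes in naive fibroblasts. Against vehicle, the IL-33 receptor gene *Il1rl1* fell to 0.273 times its vehicle level and the IL-6 receptor gene *Il6ra* rose 3.12-fold, and these 2 members passed an adjusted p of at most 0.05 (limma, Benjamini-Hochberg over all genes) together with a log2 fold change beyond 1 in size. The cytokine genes *Lif* and *Il11* fell to about the same degree, to 0.523 and 0.546 times vehicle, and passed the adjusted p alone. The shared chain *Il6st*, the oncostatin M receptor gene *Osmr* and the IL-1 receptor gene *Il1r1* differed by -9.37%, 4.52% and 1.49% and did not pass. With both thresholds 1 of 10 members was higher and 1 lower, beside 1.40% and 0.666% of the 27319 genes tested. With the adjusted p alone 1 member was higher and 3 were lower, beside 5.68% and 4.74% of all genes. The libraries of the groups did not overlap in 4 members, beside 14.5% of all genes. The median log2 fold change was -0.48 over the 10 members and -0.0064 over all genes, with 7 members below 0. Values by library are given below as normalized counts on 1 scale for all 12 libraries, with those of sample number 1 before those of sample number 2.

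**Figure D2:**
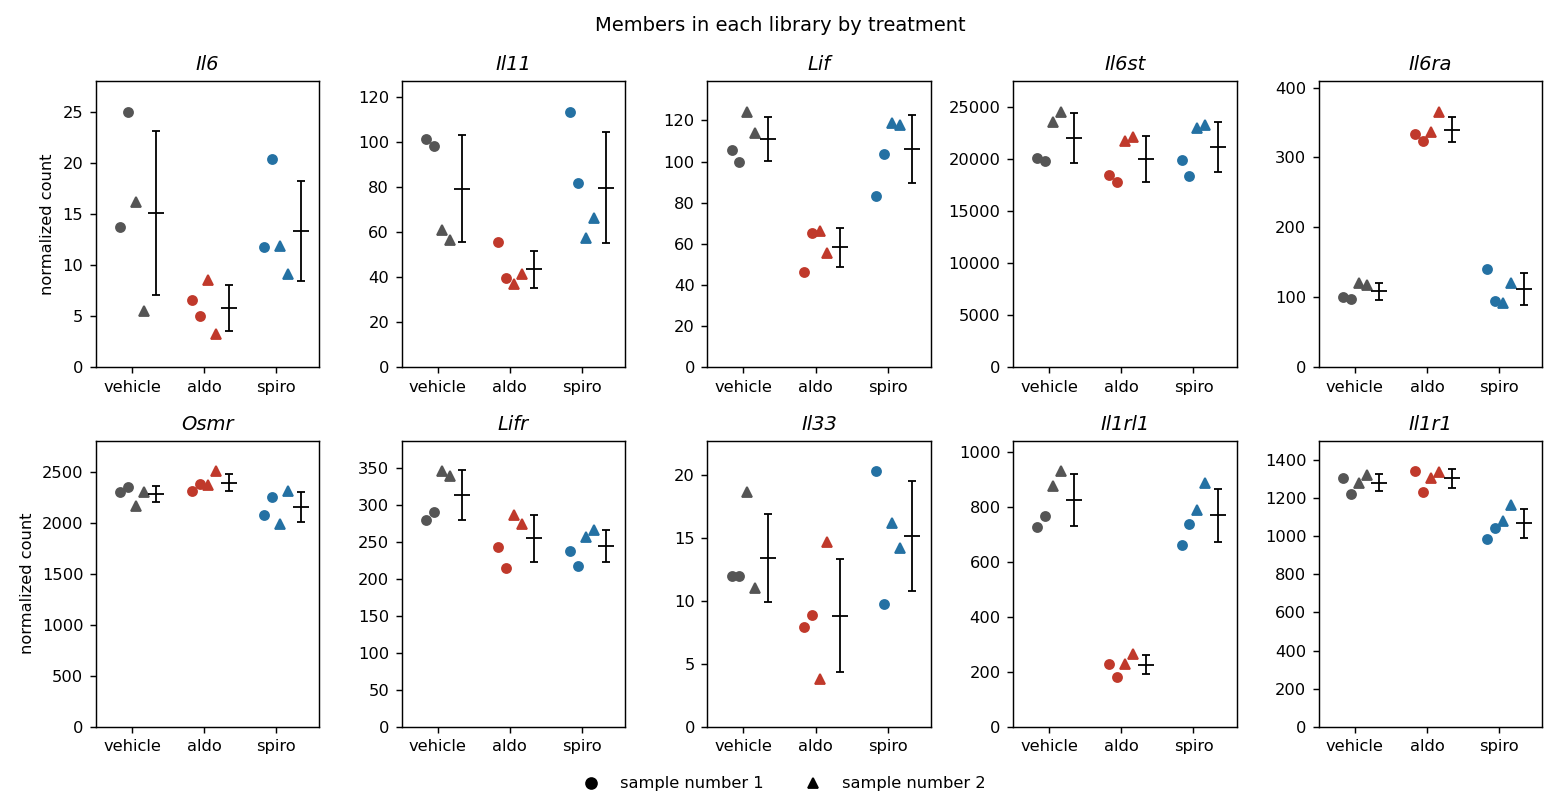
Normalized counts of the 10 members in each library (y axis, from 0, 1 scale per gene) by treatment (x axis, with aldosterone and spironolactone shortened), circles for sample number 1 and triangles for sample number 2, with the mean and SD of 4 libraries in black. The aldosterone libraries are apart from the others for *Il1rl1* and *Il6ra*, while *Il6* and *Il33* have few counts and overlap between vehicle and aldosterone. *Il6st* and *Lifr* differ by sample number within all 3 treatments, and *Il11*, *Lif* and *Il1rl1* within vehicle and spironolactone only. *Il6ra* does so within vehicle and aldosterone only, and *Il1r1* within spironolactone only.

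*Il6ra* encodes the chain that binds IL-6, both on the cell and in a shed, soluble form. It lies on chromosome 3 at 89771366 to 89820503, - strand, in the positions of the tables, and takes part in a small overlap with *Gm42809* on the other strand, which had 8 reads in all libraries together. Its normalized counts were 333, 324, 337 and 366 in aldosterone libraries. The vehicle libraries had 99.6, 97.0, 121 and 117, and the spironolactone libraries 140, 94.6, 91.9 and 120. Every aldosterone library was above every other library by more than a factor of 2, and vehicle and spironolactone overlapped. The log2 fold change against vehicle was 1.64 (95% interval 1.41 to 1.87, adjusted p = 2.9e-08 by limma). Within sample number 1 the ratio to vehicle was 3.34 and within sample number 2 it was 2.93. Since *Il6st* barely moved, the ratio of *Il6st* to *Il6ra* per length was 45.8 ± 3.55 (SD, n = 4) with aldosterone and 158 ± 4.49 with vehicle, with no overlap of the libraries.

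*Il1rl1* encodes ST2, which exists as a membrane receptor for IL-33 and as a soluble decoy, made from transcripts of different starts and ends. The gene lies on chromosome 1 at 40468730 to 40504575, + strand, and the counts cover both forms, so that the forms could not be told apart. Its normalized counts were 229, 181, 228 and 265 in aldosterone libraries. In vehicle libraries they were 726, 768, 876 and 929, and in spironolactone libraries 660, 738, 790 and 887. The highest aldosterone library was below the lowest library of either other treatment by more than a factor of 2. The log2 fold change against vehicle was -1.88 (95% interval -2.11 to -1.64, adjusted p = 5.2e-09 by limma). Within the sample numbers the ratios to vehicle were 0.275 and 0.271. *Il1r1* lies on the same chromosome at 40264240 to 40356417, overlapping *Gm38070*, which had 36 reads in all libraries. It had 1341, 1235, 1307 and 1339 normalized counts with aldosterone against 1303, 1220, 1282 and 1323 with vehicle. These overlapped almost fully, with a log2 fold change of 0.02 (95% interval -0.10 to 0.14). The ratio of *Il1r1* to *Il1rl1* per length was therefore 6.36 ± 0.782 with aldosterone and 1.70 ± 0.181 with vehicle.

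Among the cytokines, *Lif*, known for keeping stem cells undifferentiated and for its release from injured muscle, had 46.1, 65.4, 66.1 and 55.4 normalized counts with aldosterone. Vehicle libraries had 106, 100, 124 and 114 and spironolactone libraries 83.4, 104, 119 and 118. The aldosterone libraries were all below those of both other groups. Against vehicle *Lif* had a log2 fold change of -0.93 (95% interval -1.29 to -0.58, adjusted p = 0.0012 by limma), with ratios of 0.542 and 0.507 within the sample numbers. With each library left out in turn its adjusted p was 0.0081 to 0.018. With the plates of each sample number averaged, 2 against 2, it was 0.053.

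*Il11*, a cytokine tied to fibroblast activation and fibrosis, had 55.3, 39.6, 36.8 and 41.5 normalized counts with aldosterone. Vehicle libraries had 101, 98.0, 60.9 and 56.4, and spironolactone libraries 113, 81.6, 57.3 and 66.0. The aldosterone libraries were all below the rest, but the highest of them was within 2 normalized counts of the lowest vehicle library. Sample number 1 was above sample number 2 in both vehicle and spironolactone libraries. The log2 fold change of *Il11* against vehicle was -0.83 (95% interval -1.32 to -0.33, adjusted p = 0.031 by limma). The ratio to vehicle was 0.477 within sample number 1 and 0.663 within sample number 2, and the difference between these effects did not pass a test of the interaction (log2 difference 0.49, adjusted p = 0.89). In this fit, without a block, the call rested on all 8 libraries, since leaving out any 1 of them gave an adjusted p of 0.051 to 0.17. It was 0.26 with the plates averaged. With all 8 libraries the adjusted p was 0.0025 in the limma fit with the sample number as a block (95% interval -1.23 to -0.42). It was 0.019 by edgeR and 0.0056 by DESeq2.

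*Il6* and *Il33* had few reads. *Il6* had 5, 5, 9 and 4 reads in aldosterone libraries and 16, 25, 13 and 5 in vehicle libraries. The groups met at the last vehicle library. The log2 fold change was -1.14 with a 95% interval of -2.16 to -0.12, and the adjusted p was 0.18 (limma), so that no difference was shown at this depth. *Il33* had 6, 9, 4 and 18 reads with aldosterone and 14, 12, 15 and 10 with vehicle. *Il33* had a log2 fold change of -0.65 (95% interval -1.56 to 0.26, adjusted p = 0.45 by limma).

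The remaining receptor chains moved little. *Il6st* had 18447, 17787, 21745 and 22123 normalized counts with aldosterone and 20140, 19788, 23563 and 24570 with vehicle. In this gene the sample number separated the libraries more than the treatment did, as the 6 libraries of sample number 1, from 17787 to 20140, were all below the 6 of sample number 2, from 21745 to 24570. Within each sample number both aldosterone libraries were below both vehicle libraries, at 0.908 and 0.905 times their mean. The log2 fold change was -0.14 (95% interval -0.32 to 0.04, adjusted p = 0.39 by limma), and in a fit that had the sample number as a block the adjusted p was 0.0061 (95% interval -0.22 to -0.07). *Lifr* had 242, 215, 286 and 274 normalized counts with aldosterone and 279, 291, 345 and 339 with vehicle. For *Lifr* the log2 fold change was -0.31 (95% interval -0.54 to -0.08, adjusted p = 0.095 by limma), with an adjusted p of 0.0087 with the block. *Osmr* had 2315, 2386, 2377 and 2512 normalized counts with aldosterone and 2306, 2358, 2169 and 2311 with vehicle, a log2 fold change of 0.06 (95% interval -0.05 to 0.17). With the block 6 of 10 members passed the adjusted p, 1 higher and 5 lower, beside 16.7% of all genes.

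**Figure D3:**
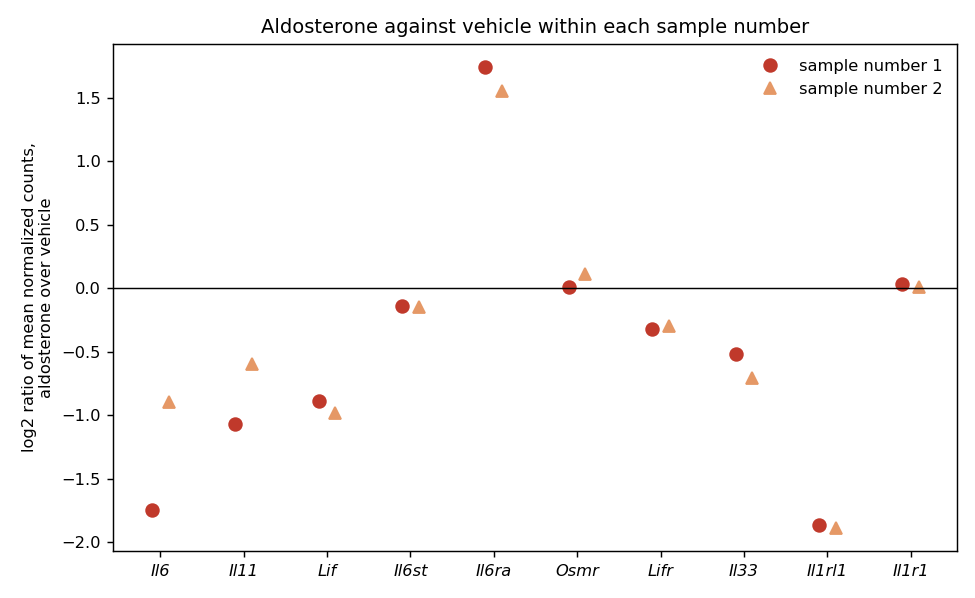
Log2 ratio of the mean normalized counts of aldosterone over vehicle libraries for each member (y axis), computed within sample number 1 (circles) and within sample number 2 (triangles), with 2 libraries per treatment in each. The points of a member lie on the same side of 0 in all 10 members, close together for *Il1rl1*, *Il6st* and *Lifr* and farther apart for *Il6* and *Il11*.

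No member passed the test of the interaction between aldosterone and the sample number, which called 4 of 27319 genes. With 2 libraries per treatment and sample number this test can miss differences. The largest log2 differences, sample number 2 minus 1, were 0.80 for *Il6*, 0.49 for *Il11* and -0.37 for *Il33*. For *Il6ra* the log2 effects were 1.73 and 1.54, and for *Il1rl1* they were -1.87 and -1.88.

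The comparison of aldosterone with spironolactone used the same aldosterone libraries and is therefore not independent of the first. *Il1rl1* was lower and *Il6ra* higher with aldosterone again, by a log2 fold change of -1.77 (95% interval -2.001 to -1.53, adjusted p = 6.4e-09) and 1.62 (95% interval 1.34 to 1.90, adjusted p = 1.5e-07, both by limma). With both thresholds 1 member was higher and 1 lower, beside 1.38% and 0.521% of 27631 genes. With the adjusted p alone 2 were higher and 3 lower, beside 4.93% and 3.96%. The libraries did not overlap in 7 members, beside 13.0% of all genes. Overlap of groups was counted in the normalization of each pair of treatments. *Lif* and *Il11* fell by 0.85 and 0.83 on the log2 scale (adjusted p = 0.0040 and 0.028 by limma). For *Lif* the adjusted p reached 0.0501 without spironolactone sample 2, biological replicate 2, and stayed at or under 0.048 without any other library. For *Il11* it was 0.046 without aldosterone sample 1, biological replicate 1, and 0.052 to 0.17 without each of the others.

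The other member past the adjusted p here was *Il1r1*, at a log2 fold change of 0.29 (95% interval 0.15 to 0.43, adjusted p = 0.0065 by limma). Its spironolactone libraries had 985, 1042, 1082 and 1165 normalized counts, all below the aldosterone and the vehicle libraries. The adjusted p was 0.0503 without aldosterone sample 2, biological replicate 2, and 0.054 without spironolactone sample 1, biological replicate 2. *Osmr* had 2077, 2256, 1991 and 2315 normalized counts with spironolactone. Its log2 fold change was 0.15 (95% interval 0.03 to 0.28), with an adjusted p of 0.15 by limma and 0.035 with the block. Its libraries did not overlap in the normalization of this comparison, with aldosterone from 2339 and spironolactone up to 2322. On the 1 scale of all libraries the groups met at 2315. With the block 6 of 10 members passed, beside 14.4% of all genes. *Il6* had 11, 25, 11 and 9 reads with spironolactone and a log2 fold change of -1.07 (95% interval -1.99 to -0.15, adjusted p = 0.17 by limma). *Il33* had 19, 12, 15 and 14 reads and a log2 fold change of -0.80 (95% interval -1.71 to 0.12). *Il6st* and *Lifr* differed by -0.08 (95% interval -0.26 to 0.10) and 0.05 (95% interval -0.17 to 0.28) on the log2 scale.

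**Figure D4:**
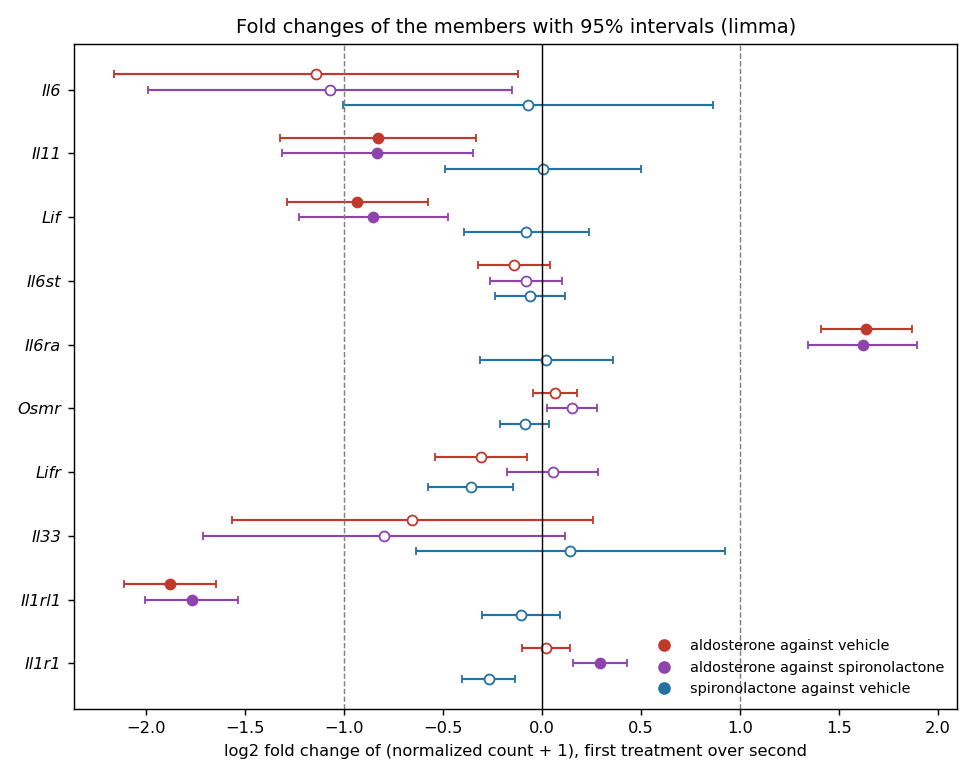
Log2 fold changes of log2(normalized count + 1) with 95% intervals from limma for the 10 members in the 3 comparisons (colours), filled where the adjusted p was at most 0.05, with dashed lines at a log2 fold change of -1 and 1. *Il1rl1* and *Il6ra* are beyond the dashed lines in both comparisons with aldosterone and near 0 between spironolactone and vehicle, where no point is filled.

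Spironolactone was compared with vehicle as a control for steroids left in the medium. No member passed the adjusted p, beside 0.0% of 27598 genes (0 by limma and by edgeR, 13 by DESeq2 at any fold change, and 1251 at an unadjusted p under 0.05 by limma). The libraries of 2 members, *Il1r1* and *Lifr*, did not overlap, beside 2.63% of all genes. *Il1r1* had a log2 fold change of -0.27 (95% interval -0.40 to -0.13, adjusted p = 0.68 by limma). *Lifr*, at 237, 218, 256 and 266 normalized counts with spironolactone, had a log2 fold change of -0.36 (95% interval -0.57 to -0.15, adjusted p = 0.91 by limma). Both passed in the fit with the block (adjusted p = 0.0074 and 0.044), which called 0.351% of all genes. For *Il1rl1* the difference was -0.11 (95% interval -0.30 to 0.09) and for *Il6ra* 0.02 (95% interval -0.31 to 0.36). The intervals were -0.39 to 0.24 for *Lif*, -0.49 to 0.50 for *Il11*, -0.24 to 0.12 for *Il6st* and -0.21 to 0.04 for *Osmr*. Those of *Il6* (-1.004 to 0.86) and *Il33* (-0.63 to 0.92) were the widest of the 10 and reached close to a log2 change of 1.

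Around these members, other genes of both pathways were counted in lists that were chosen with results of these data known. Of the other IL-6 family ligands and receptors that are reported here 9 of 12 were in the table of aldosterone and vehicle, with 1 higher, 1 lower and 7 not past the adjusted p. The receptor gene *Il31ra* rose from 10.9 to 33.4 normalized counts (log2 fold change 1.54, adjusted p = 0.0040 by limma). *Clcf1*, which encodes a cytokine of the family, fell to 0.814 times vehicle (adjusted p = 0.042 by limma). The median log2 fold change of this list was -0.26. *Il11ra1*, the receptor for IL-11, was at 2625 ± 219 and 2550 ± 181 normalized counts (SD, n = 4) and did not pass. This gene and *Stat3* were named after their values were seen.

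Downstream of gp130, 1 of 14 genes of the JAK-STAT signal and its brakes was higher and 13 did not pass, with a median of 0.05. The gene that rose was *Socs2*, a brake on cytokine receptors, 1.27-fold (adjusted p = 0.019 by limma). *Stat3* itself was at 4748 ± 367 normalized counts with aldosterone and 4381 ± 189 with vehicle and did not pass. Of 16 genes known as STAT3 targets, 8 were higher, none lower and 8 did not pass, with a median of 0.27, and 5 of them passed both thresholds. Those that did not pass, named after their values were seen, included *Socs3* (1.19 times vehicle), *Bcl3* (1.10), *Junb* (1.01) and *Pim1* (0.914). The rest of them were *Il4ra* (0.949), *Timp1* (0.836), and *Lrg1* (6.45) and *Fgl2* (0.502), both with few counts. *Socs3* was counted in both lists, and STAT3 activity was not tested. The largest increases by the fitted log2 fold change were in *Lcn2*, an iron-binding acute phase protein, at 10.6-fold, *Hp*, which encodes haptoglobin, at 8.47-fold, and *Saa3*, an acute phase apolipoprotein, at 3.13-fold (adjusted p = 3.9e-12, 9.2e-08 and 0.0049 by limma). These 3 are known as acute phase genes, on which several transcription factors act. By the ratio of means *Steap4*, named after its values were seen, rose more than *Saa3*, at 3.53-fold (adjusted p = 0.0039 by limma). Against spironolactone 6 of the 16 were higher and 1 was lower, *Timp1* at 0.805 times (adjusted p = 0.028 by limma). In the fit with the block 5 of the 14 JAK-STAT genes and 10 of the 16 STAT3 targets passed the adjusted p against vehicle, beside 16.7% of all genes. Among these, *Socs1*, named after its values were seen, fell to 0.792 times vehicle and *Timp1* to 0.836 times (adjusted p = 0.034 and 1.5e-04 by limma with the block). The others that passed with the block were higher.

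On the side of IL-1 and IL-33, 13 of 16 other ligands, receptors and decoys were in the table. Of these 4 were higher, none lower and 9 did not pass the adjusted p, with a median of 0.29. *Il1rn*, the IL-1 receptor antagonist, rose from 3459 ± 328 to 9319 ± 1056 normalized counts (log2 fold change 1.43, adjusted p = 3.5e-09 by limma). *Il1rap*, the chain that both *Il1r1* and *Il1rl1* need for a signal, rose from 649 ± 34.4 to 1160 ± 41.2 (log2 fold change 0.84, adjusted p = 1.2e-07), while *Il1rl1* fell. The ratio of *Il1rap* to *Il1rl1* per length was 0.495 ± 0.0707 with vehicle and 3.27 ± 0.583 with aldosterone, and the libraries did not overlap. *Il18*, a cytokine of the same family, rose 1.89-fold from few counts (adjusted p = 0.048 against vehicle and 0.54 against spironolactone). The fourth was the decoy receptor gene *Il1r2*, at 2.95 and 13.4 normalized counts, which was named after its values were seen (adjusted p = 0.016). With the block 5 of the 13 passed the adjusted p, beside 16.7% of all genes. Besides these 4 it was *Il1rl2*, also named after its values were seen, which fell to 0.808 times vehicle. Its adjusted p was 0.10 by limma and 0.0036 with the block.

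Of 18 genes of the MyD88 signal and its brakes, 3 were higher, none lower and 15 did not pass, and the median was -0.0063. All 3 are known as products or brakes of the pathway, with *Irak3*, an inhibitory kinase, at 1.79-fold, *Nfkbia*, the inhibitor of NF-kB, at 1.72-fold and *Nfkbiz*, a nuclear relative of it, at 1.40-fold (adjusted p = 1.7e-06, 1.3e-07 and 7.0e-04 by limma). With the block 6 of the 18 passed the adjusted p, all of them higher, beside 16.7% of all genes.

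*Il6* mRNA is short-lived and is bound by proteins that set its decay. Of 9 genes for such proteins 3 were higher, 2 lower and 4 did not pass, with a median of 0.04. With the block 6 of the 9 passed the adjusted p, beside 16.7% of all genes. *Zfp36* (1.39-fold), *Zc3h12a* (1.38-fold) and *Zfp36l2* (1.25-fold), whose proteins destabilise such mRNAs, rose (adjusted p = 5.5e-04, 0.0041 and 0.0033 by limma). *Arid5a* and *Elavl1*, whose proteins stabilise them, fell to 0.766 and 0.852 times vehicle (adjusted p = 0.018 and 0.016). Of these 2 *Elavl1* did not pass against spironolactone (adjusted p = 0.060, and 0.0034 with the block, by limma). The 4 that did not pass against vehicle, named after their values were seen, are also known for destabilising proteins. *Khsrp* and *Rc3h2* were lower, at 0.912 and 0.917 times vehicle, with no overlap of the libraries (adjusted p = 0.15 and 0.21 by limma, 0.037 and 0.077 with the block). *Rc3h1* and *Zfp36l1* were at 1.06 and 1.03 times vehicle. The steroid receptor and target list had 5 genes higher and 1 lower, *Nr3c1* at 0.753 times vehicle, and 1 that did not pass, *Nr3c2*. This gene was at 0.387 times vehicle (log2 fold change -1.21, adjusted p = 0.085 by limma), its libraries overlapped, and it passed with the block (adjusted p = 0.0079). Between spironolactone and vehicle no gene of these lists passed the adjusted p, and with the block none did either.

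**Figure D5:**
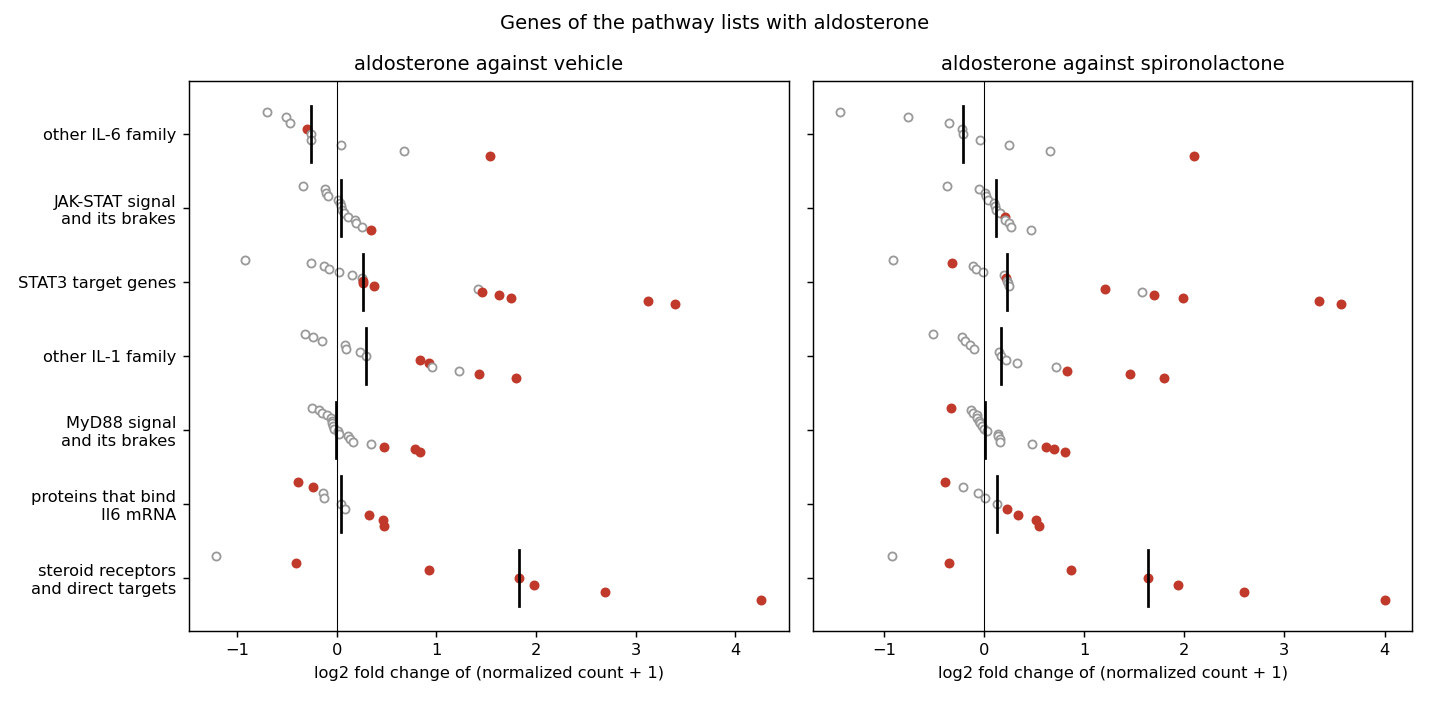
Log2 fold changes of log2(normalized count + 1) for the genes of each list (1 point per gene, filled red where the adjusted p was at most 0.05, black bar at the list median), for aldosterone against vehicle on the left and against spironolactone on the right. The STAT3 targets reach from -0.92 to 3.39 against vehicle, while the JAK-STAT and MyD88 lists stay between -0.33 and 0.84.

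The genes with the profile nearest to a called member over all 12 libraries, among 15310 genes that averaged 10 normalized counts or more, were found from the root mean square difference of their log2 values, each centred on its own mean. For *Il1rl1* these were *Ano5*, a membrane protein gene mutated in a form of muscular dystrophy (0.14), *1520401A03Rik* (0.15) and *Tnfsf15*, a cytokine of the TNF family (0.20), where *Il1rl1* itself deviated from its mean by 0.87. For *Il6ra*, which deviated by 0.79, they were *Prune2* (0.16), *Ehd3* (0.18) and *Prrg3* (0.18). The log2 fold changes of these genes against vehicle were -1.998, -2.10 and -1.85, and 1.52, 1.55 and 1.57. Since the genes were picked for near profiles in the same libraries, fold changes close to those of the members follow from the choice.

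Across treatments the members also differed by sample number. *Il6st* was 1.21 times as high in sample number 2 as in sample number 1, with no overlap among 12 libraries. *Lifr* was 1.19 times as high, with sample number 2 above sample number 1 in all 3 treatments. *Il11* went the other way, at 0.652 times. For comparison, vehicle was 1.10 times as high as aldosterone in *Il6st* and 1.24 times in *Lifr*, and 3.67 times in *Il1rl1*.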

How the data were processed

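Poly(A) RNA of cultured neonatal mouse hindlimb muscle fibroblasts was sequenced after treatment with vehicle, aldosterone or spironolactone, with 4 libraries per treatment. The authors aligned the reads with HISAT2 (version 2.0.5) and counted them with featureCounts (version 1.5.0-p3), as the submitters' processing notes give, and deposited 3 tables, 1 per pair of treatments. The deposited signal values are normalized counts, made by the authors as counts per gene over the DESeq2 size factor of the library. The authors also deposited log2 fold changes and p-values of their own DESeq2 comparisons and their group means, which were not used. The methods name the genome build mm9, while the processing notes name mm39. Of 20676 gene starts in the deposited files, 39 were those of mm9, and of 22897 starts 143 were those of GRCm38.p6. Gene positions are given as the tables have them, and cannot be set beside those of the promoter windows. Whether counting used the strand was not given in the sources used here.

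The reads were recovered as whole multiples of the step of each column (100% whole, tolerance 0.01), with the reads of 2 libraries taken from 1 table only. The plan named edgeR for raw counts. Since the tables hold normalized counts, limma (version 3.58.1 in R 4.3.3, with a trend) was run on log2(normalized count + 1) for all genes of each table, with Benjamini-Hochberg adjustment, thresholds of an adjusted p of 0.05 and an absolute log2 fold change of 1, and no filter. Fold changes on this scale understate those of low genes. Levels of all 12 libraries were set on 1 scale with TMM factors (edgeR version 4.0.16), as normalized counts and RPKM from the gene lengths of the tables. Markers with at most 3 reads over a group counted as at the floor.

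Libraries with the same sample number deviated together from their treatment means (24 pairs across treatments, r of 0.132 to 0.284 over 15310 genes, mean 0.218), while those with the same biological replicate number did not (mean -0.0057). The sample number, which comes from the labels, was therefore also fitted as a replicate block. Replicate libraries differed by more than counting noise. The chi-square per gene was 3.96 to 9.14 for pairs with the same sample number and 14.9 to 25.7 for pairs with different sample numbers.

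Alternatives were edgeR and DESeq2 (version 1.42.0) on the recovered reads, a pseudocount of 0.5, a mean of at least 10, TMM scaling, both replicate blocks, averaged plates, each library left out and the adjusted p alone. Fits within a single sample number were added after seeing the data. The tests were checked on simulated counts with known changes. These counts were drawn independently for each library, with no effect of the sample number. The check therefore cannot show how the p-values hold where libraries of a sample number deviate together. The members and lists were chosen with earlier results of these data known. All 10 members are named, and from each list up to 3 genes per direction with the largest log2 fold change against vehicle among those past the adjusted p with a mean of at least 10, every gene of the steroid list, and 3 genes with the nearest profile for each member past both thresholds. Genes outside this rule are said to be so. Some genes of the planned lists, and a planned list of proteases, are not reported here, and the counts and medians of the lists are without them. Promoter sequences are from RefSeq (GRCm38.p6), matched by symbol for 10 of 10 members. The number of libraries limits the precision of every value, and other cells and assays of the study were not analysed here.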

Additional observations from a re-analysis of the deposited data

Results flagged for a closer look

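Of 30 groups of 4 libraries (10 members in 3 treatments), 1 held a library far from the other 3. This was *Il33* in vehicle, where sample 2, biological replicate 1 had 18.6 normalized counts while the others had 11.1, 12.0 and 12.0. The value rests on 15 reads, and chance alone marks about 1 in 20 such groups.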

How the results depend on the processing

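At the thresholds of the report *Il1rl1* and *Il6ra* kept their direction in every alternative run for the aldosterone comparisons, and lost the adjusted p only in fits of 2 against 2 libraries within a sample number (chosen after seeing the data). Within sample number 1 these were -1.87 and 1.73 against vehicle and -1.76 and 1.51 against spironolactone, and within sample number 2 it was 1.73 for *Il6ra* against spironolactone, so 0 members were called higher or lower within sample number 1. *Lif* no longer passed within sample number 1 (-0.89 and -0.74 against vehicle and spironolactone), within sample number 2 (-0.97 and -0.96) or with plates averaged (-0.93 and -0.85). The same held for *Il11* within sample number 1 (-1.07 and -1.01), within sample number 2 (-0.58 and -0.65) and averaged (-0.83 and -0.83), and for *Il1r1* against spironolactone (0.35, 0.23 and 0.29). With a replicate block for the sample number *Il6st* (-0.14) and *Lifr* (-0.31) passed against vehicle, *Osmr* (0.15) against spironolactone, and *Il1r1* (-0.27) and *Lifr* (-0.36) between spironolactone and vehicle, and the block changed no other call of a member. Between spironolactone and vehicle it called 97 genes by the adjusted p alone, of which 2, neither of them a member, passed both thresholds and were lower.

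Over all genes the counts higher and lower were 1553 and 1294 against vehicle and 1361 and 1093 against spironolactone with the adjusted p alone (members 3 lower against vehicle, 2 higher and 3 lower against spironolactone), 226 and 51, and 192 and 31, with plates averaged, and 15 and 2, and 4 and 0, within sample number 1. Within sample number 2, 231 and 209 were higher, and no member was higher against spironolactone. Without 1 library, 116 to 162 genes were lower against vehicle, with the lowest count without vehicle sample 2, biological replicate 1.

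Without 1 library the log2 fold change of *Il11* was -0.97 to -0.69 against vehicle and -0.97 to -0.64 against spironolactone, that of *Il1r1* 0.25 to 0.34 and that of *Lif* -0.96 to -0.75 against spironolactone. The values that changed sign were past no threshold. Without 1 library these were *Il1r1* (-0.0028 to 0.048) against vehicle, *Lifr* (-0.0056 to 0.13) against spironolactone, and between spironolactone and vehicle *Il11* (-0.18 to 0.15), *Il33* (-0.0048 to 0.32), *Il6* (-0.45 to 0.21), *Il6ra* (-0.10 to 0.11), *Il6st* (-0.11 to 0.0070) and *Lif* (-0.14 to 0.030). In the last comparison *Il11* also changed sign with edgeR (-0.011), with DESeq2 (-0.0044, with no adjusted p) and within sample number 1 (-0.056), and *Il6* (0.11) and *Il6ra* (-0.18) within sample number 2. The difference of the aldosterone effect between sample numbers changed sign with TMM scaling for *Il1r1* (0.0064), *Il1rl1* (0.0076) and *Il6st* (0.020), and without 1 library for these 3 (-0.082 to 0.048, -0.19 to 0.16 and -0.035 to 0.028), *Il33* (-1.22 to 0.48), *Lif* (-0.32 to 0.16) and *Lifr* (-0.070 to 0.11). The causes were not tested. DESeq2 gave no adjusted p for *Il6*, *Il11*, *Lif*, *Il6ra* and *Il33* between spironolactone and vehicle, edgeR's filter removed *Il6* from both aldosterone comparisons, and a mean of at least 10 removed it against spironolactone. Depth limits *Il6* (4 to 25 reads) and *Il33* (4 to 19).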
